A study of Mus musculus with 20 samples.

Results

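The genes described here are 8 genes of Schwann cells and myelin, Sox10, Erbb3, Mbp, Pmp22, Mag, Prx, S100b and Cdh19, measured in cultures of mouse dorsal root ganglion (DRG) neurons. They were chosen by name, and every probe that the array annotation gives to one of these names was taken, which were 11 probes of 39429 (8 of 30222 gene names). All 11 carried the same name in both annotations that came with the arrays, and the accession of each one led to the same symbol in RefSeq. Total RNA was hybridized to 10 Agilent arrays, glass slides that carry DNA probes of 60 bases, and 2 samples of 1 condition, labelled with Cy3 and Cy5, shared each array. Spots are described by a normalized log2 signal, which compares samples for 1 probe and does not compare probes with each other. The neurons came from NIH Swiss embryos at day 13.5 and were grown in compartments with nerve growth factor and horse serum. All 5 groups, the unstimulated one included, had been treated with fluoro-deoxyuridine, which limits the division of non-neuronal cells.

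The groups had 4 samples on 2 arrays each. Unstimulated cultures were set against cultures that received bursts of 18 action potentials every 1 min (18/1) or bursts of 90 every 5 min (90/5), for 2 hr or 5 hr, with biphasic pulses of 6 V and 0.2 ms. Both patterns thus gave the same mean number of action potentials in a different order, and the comparison asks whether transcripts followed the pattern, the time or neither. The study calls the samples of a condition biological replicates, and its methods also describe 5 pooled cultures for each condition. How the pooled cultures relate to single samples is not given in the sources used here, so the p-values below measure the spread between these samples, which may be in part technical. The labels call the cells DRG neurons, while the protocol in the labels names spinal cords as their origin. Slide 1 held the unstimulated and the 18/1 2 hr samples, slide 2 the 18/1 5 hr and the 90/5 2 hr samples, and slide 3 the 90/5 5 hr samples. Slide and condition cannot be told apart except in 18/1 2 hr against unstimulated and in 90/5 2 hr against 18/1 5 hr.

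Slide 2 stood apart. On it 45 to 14642 of 43020 spots per sample carried the scanner software's mark for a non-uniform spot, against 6 to 36 on slide 1 and 37 to 85 on slide 3. All 4 samples of 18/1 5 hr had at least 5319 such spots. The ratio of the median spot to its local background ranged from 3.64 to 10.4 there, and from 2.27 to 2.94 on slide 1 and 2.66 to 4.91 for slide 3. The part of these differences in the results at 18/1 5 hr and 90/5 2 hr was not tested.

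Schwann cells are the glia of peripheral nerves. They arise from the neural crest under the control of the transcription factor Sox10 and depend on neuregulin from axons, which they sense through the receptors ErbB2 and ErbB3. Those that wrap larger axons form myelin, a stack of membranes held together by proteins such as myelin basic protein (Mbp) and peripheral myelin protein 22 (Pmp22), while myelin-associated glycoprotein (Mag) lies at the face of the axon and periaxin (Prx) in the outer membrane. Some of these genes are not particular to Schwann cells: satellite glia of the ganglion also express Sox10 and Erbb3, S100b is found in several glia and in neurons, and Mbp and Mag are shared with oligodendrocytes. In RNA from whole cultures, fewer cells of a type and less RNA per cell cannot be told apart.

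The probe sequences are shown for the genes on which the text turns, because they mark the stretch of the transcript that was read, and the probes of Pmp22 read separate stretches. In the first group, capitals mark the hexamer AATAAA, the polyadenylation signal found close to the 3′ end of many transcripts, within 30 of the 60 bases of the probe. The hexamer was searched on the printed strand alone and occurred in 4 of the 11 probes, and in 12.6% of all 39429 probes on the array. A match says only that these letters lie in the probe.
Sox10 A_55_P2094729: tccagcgataccttAATAAAgtacgtagct
Pmp22 A_55_P2040170: gatgcatcaaAATAAAcatcagagtaactc
Mag A_55_P2062757: aaagggacatgaAATAAAtgtcctaatgac
Prx A_55_P2149951: tcaaactatgggAATAAAataattcaaaag

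In the second group the whole probe is given, and capitals mark a TGA stop triplet. In the Pmp22 probe it closes the reading frame that starts at base 3, after 51 open bases. In the Erbb3 probe it closes the frame that starts at base 1, after 57 open bases, and forms the end of the probe.
Pmp22 A_55_P2040168: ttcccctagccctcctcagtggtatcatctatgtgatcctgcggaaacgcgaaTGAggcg
Erbb3 A_55_P2119897: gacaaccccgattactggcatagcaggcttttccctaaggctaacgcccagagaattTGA

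By the coordinates of the files, which are on build mm9, the Sox10 probe lies at chr15:78985518-78985577, the Mag probe at chr7:31684202-31684261, the Prx probe at chr7:28304999-28305058, the S100b probe at chr10:75723783-75723842, the Erbb3 probe at chr10:128006424-128006483 and the Cdh19 probe at chr1:112785846-112785905. The Pmp22 probes lie at chr11:62971862-62971921 and chr11:62972989-62973048, with 1067 bases between them. Exons and untranslated regions were not annotated here, since no annotation of that build was used.

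Not all of the 8 genes could be measured. S100b, both Pmp22 probes, Sox10 and 1 of the 3 Mbp probes (A_52_P604195) were marked as well above background in all 20 samples, and Prx in 18. Mag was marked in 13 samples, a second Mbp probe (A_55_P1992160) in 12 and Cdh19 in 10. Erbb3, the neuregulin co-receptor, was marked in none of the 20 samples, and its spots were 0.958 to 3.52 times as bright as their background, so these arrays gave no level for it. The third Mbp probe (A_52_P329451) was marked in 1 sample. The 3 Mbp probes read distant parts of the locus, with 36400 bases between A_55_P1992160 and A_52_P604195 and 14277 bases between A_52_P604195 and A_52_P329451, and they differed in whether they gave signal. The plot of spots over background shows which probes stood clear of it.

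**Figure D1:**
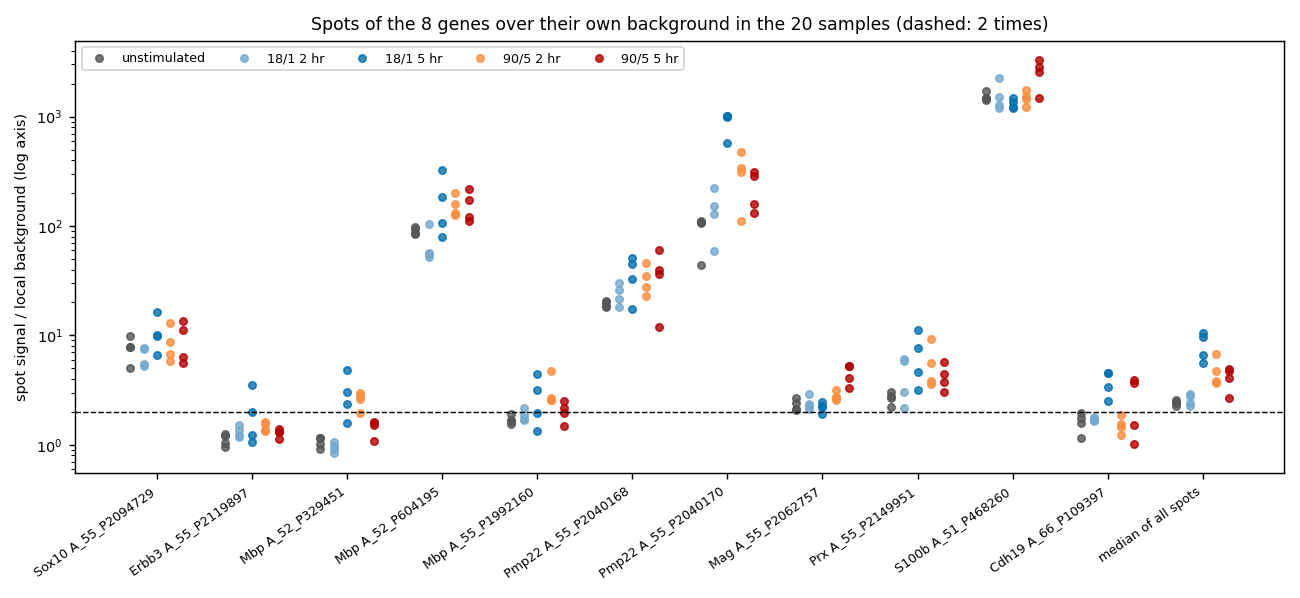
Spot signal divided by local background (log axis) for the 11 probes, 1 point per sample and colours by condition, with the median over all spots of each sample at the right. S100b lies at 1188 to 3266 times its background and Erbb3 between 0.958 and 3.52 times, with only 1 sample above the dashed line at 2 times. The median spot lies at 5.55 to 10.4 times its background in the 18/1 5 hr samples and at 6.71 times or less in the others.

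The study's spot filter asks for at least 2 times the background and no local corruption of the spot, in all 20 samples. The scanner software's mark for a non-uniform spot was taken here as such corruption. S100b was the only one of the 8 genes to pass the filter. On the background rule alone, 6 probes of 5 genes would have passed (S100b, Sox10, Prx, both of Pmp22 and Mbp A_52_P604195). The values of the other 10 probes therefore come from the same limma fit with no spot filter, over all 39429 probes, and for S100b both fits were used.

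In that fit, 2 of the 11 probes were called lower at 18/1 5 hr than in unstimulated cultures at an adjusted p under 0.05, those of Mag and Mbp A_55_P1992160, and none was called higher. Of all probes 25.5% were called in this comparison, 13.5% lower and the others higher (4725 probes), so that 2 of 11 is close to the share over the array. None of the 11 was called at 18/1 2 hr (0.00507% of all probes), at 90/5 2 hr (1.44%) or at 90/5 5 hr (0.0457%) against unstimulated cultures, where limma gave 0, 1 and 0 of them an unadjusted p under 0.05 (0.596%, 14.8% and 2.79% of all probes). For 18/1 5 hr, 4 of the 11 had an unadjusted p under 0.05 (38.4% of all probes), Mag, Mbp A_55_P1992160, Sox10 and Pmp22 A_55_P2040170, of which the first 2 were called. A further fit left out slide 2 and put the replicate number as a block in place of the effect of colour. It called 17 of all probes instead of 2 at 18/1 2 hr, and none of the 11. Between the patterns, 0 of 11 were called at 2 hr (1.13% of all probes), with 2 at an unadjusted p under 0.05 (13.8%), and 1 of 11 at 5 hr (26.7%). On slide 2, none was called between 90/5 2 hr and 18/1 5 hr (6.27%), with 2 at an unadjusted p under 0.05 (23.9%). The median difference over the 11 probes at 18/1 5 hr was -0.42 on the log2 scale. Over all probes it was -0.01, and over the 11952 probes that passed the spot filter it was -0.26. At 18/1 2 hr, 90/5 2 hr and 90/5 5 hr the medians of the 11 were 0.02, -0.04 and -0.05.

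**Figure D2:**
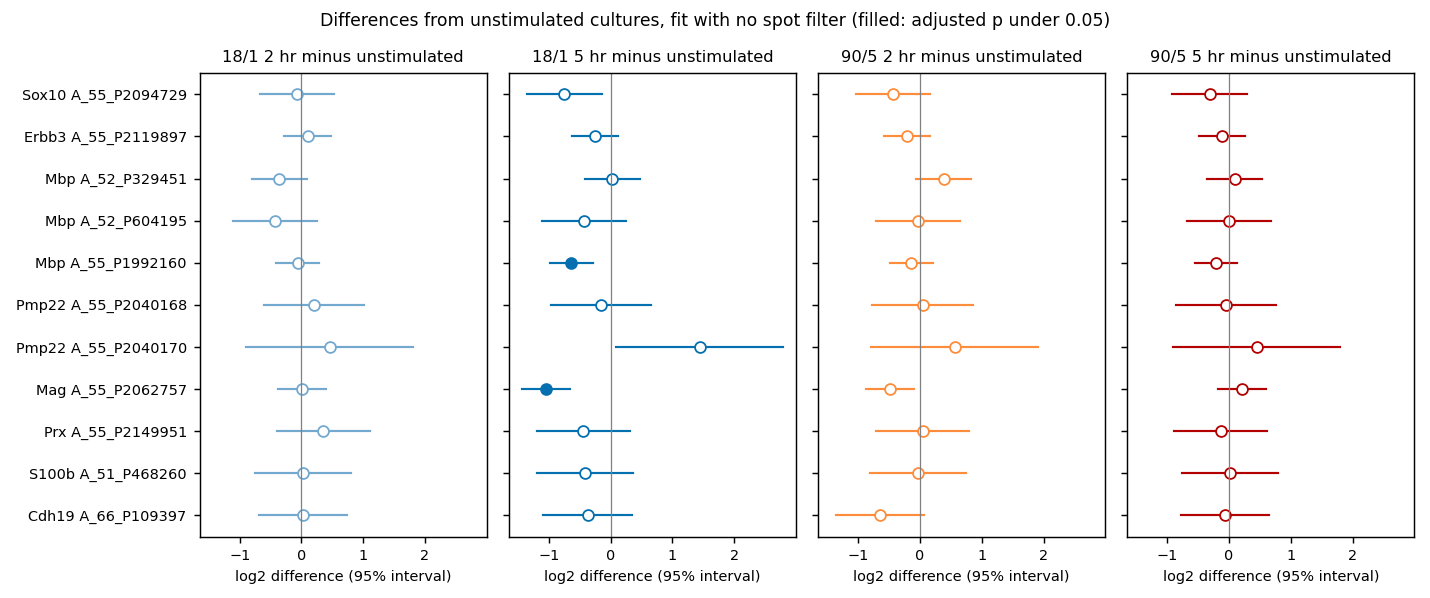
Log2 differences of each stimulated condition from unstimulated cultures for the 11 probes, with 95% intervals from the limma fit with no spot filter. Filled points passed an adjusted p of 0.05, which were Mag (-1.05) and Mbp A_55_P1992160 (-0.64) at 18/1 5 hr, and the widest intervals belong to Pmp22 A_55_P2040170.

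Mag, the adhesion molecule of the inner myelin membrane, gave the clearest difference. Its log2 signal was 7.50, 7.63, 7.52 and 7.52 in unstimulated samples 1 to 4 and 7.66, 7.64, 7.41 and 7.50 in the samples of 18/1 2 hr. In 18/1 5 hr it was 6.59 and 6.43 on array 5 (Cy3 and Cy5) and 6.52 and 6.43 on array 6. The 18/1 5 hr samples lay together below every sample of the other conditions, in both arrays and both colours. They lay close to the lowest signal among probes well above background in the same samples (6.40 to 6.46). Agreement between arrays and colours carries little weight at that level.

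At 90/5 2 hr, Mag was at 7.41 and 7.25 on array 7 and at 6.89 and 6.70 on array 8, and at 90/5 5 hr it was at 7.73, 7.66, 7.91 and 7.74. The 90/5 2 hr samples thus lay above the 18/1 5 hr samples and below the unstimulated ones, with array 8 below array 7, and met those of 18/1 2 hr at 7.41, while all 4 samples of 90/5 5 hr lay above the unstimulated ones. Against unstimulated cultures the difference was -1.05 ± 0.18 (SE) on the log2 scale at 18/1 5 hr (adjusted p = 0.00081, limma), -0.48 ± 0.18 at 90/5 2 hr (adjusted p = 0.23) and 0.21 ± 0.18 at 90/5 5 hr (adjusted p = 1.00). The difference at 90/5 2 hr was called in 2 alternatives, and ranged from -0.75 to -0.21 over all of them. Between the patterns at 5 hr, Mag was higher after 90/5 by 1.27 ± 0.18 (adjusted p = 0.00017, limma). Within slide 2, it was higher at 90/5 2 hr than at 18/1 5 hr by 0.57 ± 0.18 (adjusted p = 0.073, limma), which did not pass.

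The Mag probe was not well above background in any 18/1 5 hr sample, so its level there is only bounded. The mean of the 4 unstimulated samples (7.54) was at least 2.06-fold higher than the 18/1 5 hr samples, and that of 90/5 5 hr (7.76) at least 2.39-fold higher. For such bounds each dim sample was set to the higher of its own signal and the lowest signal among its probes well above background. Before normalization the Mag spots were 1.91 to 2.46 times as bright as their background at 18/1 5 hr and 2.09 to 2.68 times in unstimulated samples, ranges that overlap, while over all spots the median ratio to background was 5.55 to 10.4 in 18/1 5 hr samples and 2.27 to 2.59 in unstimulated ones. The difference in Mag is thus one relative to the other spots of the array.

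Mbp is the membrane protein that compacts the inner faces of the myelin sheath. Its probe A_52_P604195 was bright in every sample, at 12.36, 12.37, 12.17 and 12.39 in unstimulated samples 1 to 4 and at 11.54, 11.94, 12.23 and 11.86 at 18/1 2 hr. It was at 11.48 and 11.65 on array 5, where both spots were marked as non-uniform, and at 12.10 and 12.34 on array 6 of 18/1 5 hr. At 90/5 2 hr it was at 12.06, 12.53, 12.27 and 12.32, and at 90/5 5 hr at 11.80, 12.48, 12.47 and 12.55. All 5 conditions overlapped on this probe, and each stimulated condition held samples below the lowest unstimulated one.

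Its difference from unstimulated cultures was -0.43 ± 0.32 (SE) at 18/1 2 hr (adjusted p = 1.00, limma), -0.43 ± 0.32 at 18/1 5 hr (adjusted p = 0.35), -0.03 ± 0.32 at 90/5 2 hr (adjusted p = 0.98) and 0.00 ± 0.32 at 90/5 5 hr (adjusted p = 1.00). The 95% intervals reached from -1.11 to 0.25 at both times of 18/1 and from -0.71 to 0.65 and -0.68 to 0.68 for 90/5. All 4 intervals thus contained 0.

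The dim Mbp probe A_55_P1992160 was lower at 18/1 5 hr. It was at 7.20 to 7.28 in the 4 unstimulated samples and at 7.11 to 7.30 at 18/1 2 hr, and at 6.78 and 6.86 on array 5 (both spots marked as non-uniform) and 6.40 and 6.38 on array 6 of 18/1 5 hr. At 90/5 2 hr it was at 6.93 to 7.21 and at 90/5 5 hr at 6.97 to 7.07. The 18/1 5 hr samples lay below all the others.

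The fitted difference from unstimulated cultures was -0.64 ± 0.16 (SE, adjusted p = 0.0094, limma) at 18/1 5 hr. No sample of 18/1 5 hr or of 90/5 2 hr was well above background on this probe, so that unstimulated cultures were at least 1.54-fold higher than 18/1 5 hr. The call was lost without array 1 (adjusted p = 0.068), without array 2 (0.082) and without array 6 (0.089). It was also lost with samples centred on their medians alone (0.23), with the means of arrays in place of samples (0.054), in a fit of the compared conditions alone (0.058) and after signals had been corrected for the GC content of each probe (-0.34, adjusted p = 0.12). The third probe, A_52_P329451, had group means between 6.25 and 7.0, and none of its differences was called in the fit with no filter. It was well above background in only 1 of the 20 samples. Its difference between 90/5 2 hr and 18/1 2 hr was called in 2 alternatives, with no sample of either group well above background.

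**Figure D3:**
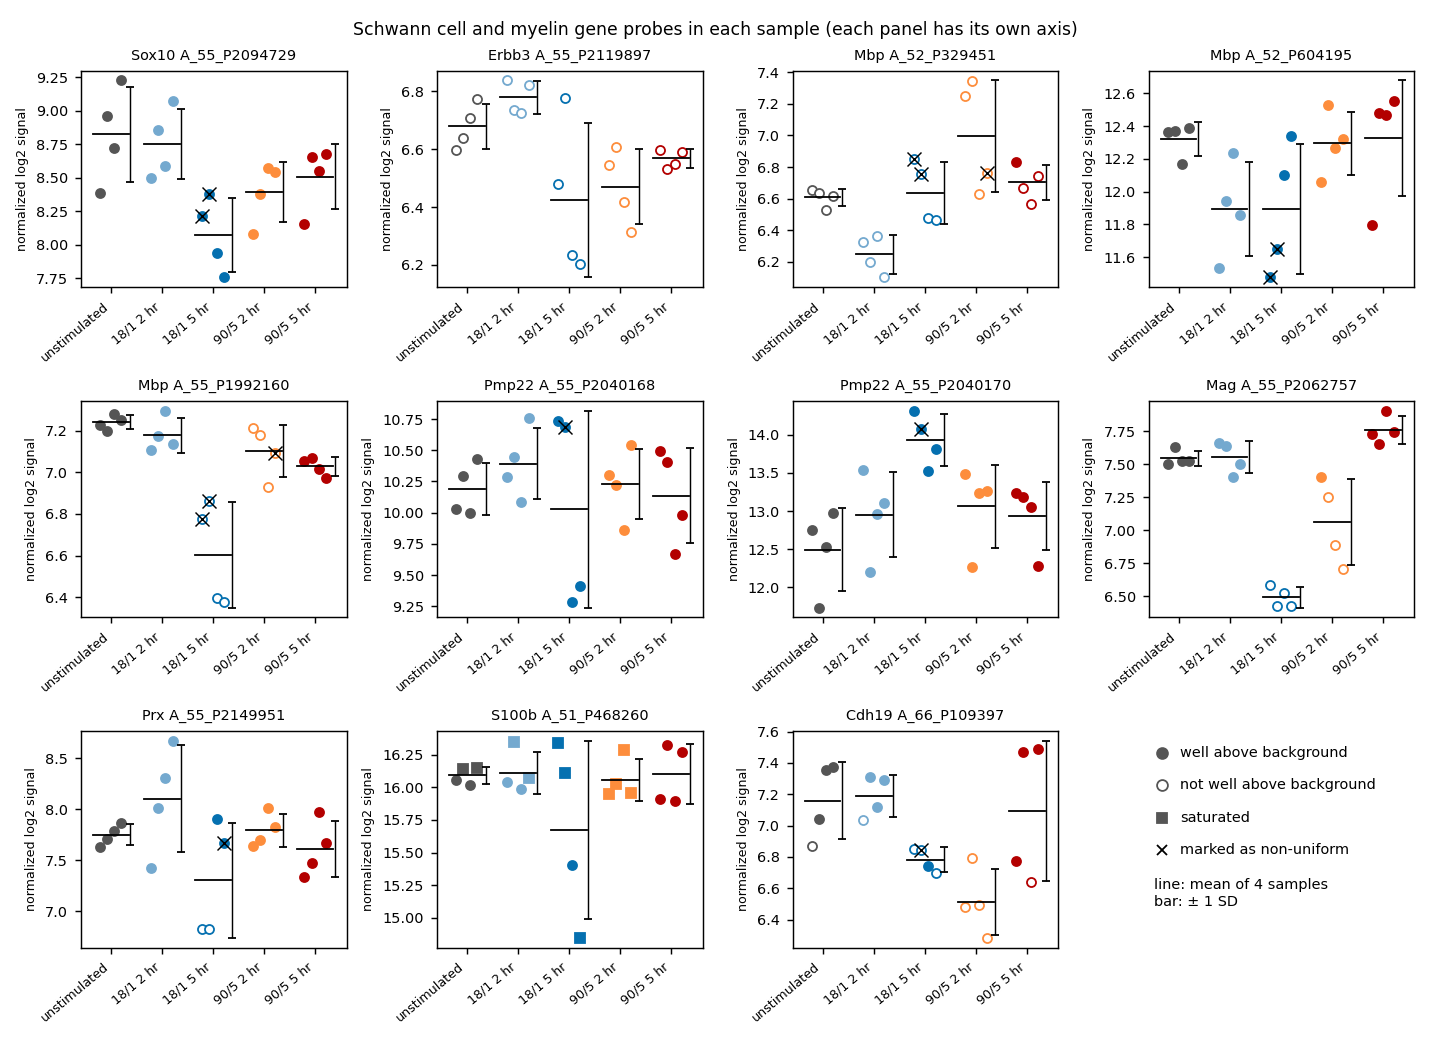
Normalized log2 signal of the 11 probes in the 20 samples, 1 panel per probe with its own axis, 4 points per condition with their mean (line) and SD (bar). Open points were not well above background, squares were saturated and crosses mark non-uniform spots. Mag and Mbp A_55_P1992160 are lowest in 18/1 5 hr, and Pmp22 A_55_P2040170 has its highest mean there.

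Sox10, the transcription factor that specifies and maintains Schwann cells and satellite glia, was well above background in all samples. Unstimulated samples 1 to 4 were at 8.39, 8.96, 8.72 and 9.23, and the samples of 18/1 2 hr at 8.50, 8.86, 8.59 and 9.07. At 18/1 5 hr the signal was 8.21 and 8.38 on array 5 (both spots marked as non-uniform) and 7.94 and 7.75 on array 6. The highest 18/1 5 hr sample lay 0.01 below the lowest unstimulated one, so the groups met without overlapping.

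At 90/5 2 hr Sox10 was at 8.08, 8.37, 8.57 and 8.54, and at 90/5 5 hr at 8.16, 8.65, 8.55 and 8.68, both overlapping with unstimulated samples. The mean was highest in unstimulated cultures (8.82 ± 0.36, SD, n = 4), followed by 18/1 2 hr (8.75 ± 0.26), 90/5 5 hr (8.51 ± 0.24), 90/5 2 hr (8.39 ± 0.22) and 18/1 5 hr (8.07 ± 0.28), and neighbours in this order overlapped. The difference at 18/1 5 hr was -0.75 ± 0.29 (SE, 95% interval -1.36 to -0.15), with an adjusted p of 0.062 in limma, and did not pass the test. It passed on the background rule alone (adjusted p = 0.030, 18333 probes tested, chosen after the data were seen). It also passed without unstimulated sample 1 (-0.84, adjusted p = 0.041) or without the Cy3 sample of array 6 (-0.85, adjusted p = 0.031). In all, the difference passed in 7 alternatives and did not pass in 38, where it lay between -0.98 and -0.53.

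The probes of Pmp22, which encodes a membrane protein of compact myelin that other cells, fibroblasts among them, also make, differed in their values at 18/1 5 hr. The probe with AATAAA (A_55_P2040170) was at 12.75, 11.74, 12.53 and 12.97 in unstimulated samples 1 to 4 and at 13.53, 12.21, 12.96 and 13.11 at 18/1 2 hr. It was at 14.32 and 14.08 on array 5 and 13.53 and 13.81 on array 6 of 18/1 5 hr, all above the unstimulated samples. At 90/5 2 hr it was at 13.49, 12.26, 13.24 and 13.26, and at 90/5 5 hr at 13.24, 13.19, 13.05 and 12.28. Single low samples in the unstimulated, 18/1 2 hr, 90/5 2 hr and 90/5 5 hr groups widened its spread.

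The difference of this probe from unstimulated cultures at 18/1 5 hr was 1.44 ± 0.64 (SE, 95% interval 0.09 to 2.79) with an adjusted p of 0.11 in limma, and did not pass. It passed on the background rule alone (adjusted p = 0.022) and with the means of arrays in place of samples (adjusted p = 0.021). In all, the difference passed in 6 alternatives and did not pass in 39, where it lay between 1.17 and 1.70. The other conditions gave 0.46 (18/1 2 hr), 0.57 (90/5 2 hr) and 0.44 (90/5 5 hr), each ± 0.64.

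The Pmp22 probe with the stop triplet (A_55_P2040168) had means of 10.19 ± 0.21 (SD, n = 4) in unstimulated samples, 10.39 ± 0.28 after 18/1 for 2 hr, 10.23 ± 0.28 after 90/5 for 2 hr and 10.14 ± 0.38 after 90/5 for 5 hr. At 18/1 5 hr it was at 10.74 and 10.68 on array 5 and 9.28 and 9.41 on array 6, on either side of the unstimulated samples. Its difference there was -0.16 ± 0.39 (SE, 95% interval -0.97 to 0.65, adjusted p = 0.80 in limma). The difference between the probes was not tested.

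Prx, the scaffold protein of the myelinating Schwann cell, was at 7.63 to 7.87 in unstimulated samples and at 7.42, 8.01, 8.31 and 8.67 in those of 18/1 2 hr. At 18/1 5 hr it was at 6.82 and 6.82 on array 5, where neither spot was well above background, and at 7.90 and 7.66 on array 6. It was at 7.64 to 8.01 at 90/5 2 hr and at 7.34 to 7.97 at 90/5 5 hr. All stimulated conditions overlapped with unstimulated cultures, and the differences were 0.36, -0.44, 0.04 and -0.14 (each ± 0.36, SE) in the order 18/1 2 hr, 18/1 5 hr, 90/5 2 hr and 90/5 5 hr, none past the test.

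S100b, a calcium-binding protein used as a marker of Schwann cells and other glia, was so bright that its spot was saturated in 11 of 20 samples, in 2, 2, 3, 4 and 0 of 4 in the order unstimulated, 18/1 2 hr, 18/1 5 hr, 90/5 2 hr and 90/5 5 hr. A rise in a saturated sample would not be seen. The signal was at 16.02 to 16.15 in unstimulated samples, 15.99 to 16.35 at 18/1 2 hr, 15.95 to 16.29 at 90/5 2 hr and 15.90 to 16.32 at 90/5 5 hr. At 18/1 5 hr it was at 16.34 and 16.11 on array 5 and at 15.40 and 14.85 on array 6, and the spot at 14.85 was itself saturated, so that its level is a lower bound.

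In the fit with the spot filter, in which 11952 probes were tested, the difference of S100b from unstimulated cultures was 0.02 after 18/1 for 2 hr and -0.42 after 5 hr. It was -0.04 after 90/5 for 2 hr and 0.01 after 5 hr, each ± 0.31 (SE). S100b was called in none of the 7 comparisons, nor in the fit with no filter. Of the filtered probes 0.0167%, 45.1%, 6.18% and 0.0586% were called in these 4 comparisons. Between the patterns 4.74% were called at 2 hr and 46.1% at 5 hr, and 13.7% between 90/5 2 hr and 18/1 5 hr. Without array 5, the S100b difference at 18/1 5 hr was -0.97 (adjusted p = 0.029, limma) and that of 90/5 5 hr over 18/1 5 hr 0.98 (adjusted p = 0.026). Without array 6 the same differences changed sign, to 0.13 (adjusted p = 0.73) and -0.12 (adjusted p = 0.74). With samples centred on their medians alone they were -1.93 (adjusted p = 0.00018) and 2.17 (adjusted p = 3.2e-05). All of these S100b differences include saturated spots, so none of them gives an exact size.

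Cdh19, a cadherin of Schwann cell precursors, stayed close to background. It was well above background in 3 of 4 samples of unstimulated cultures, 18/1 2 hr and 90/5 5 hr, in 1 of 4 at 18/1 5 hr and in 0 of 4 at 90/5 2 hr. Its mean was 7.16 ± 0.25 (SD, n = 4), 7.19 ± 0.13, 6.78 ± 0.08, 6.51 ± 0.21 and 7.09 ± 0.45 in the order unstimulated, 18/1 2 hr, 18/1 5 hr, 90/5 2 hr and 90/5 5 hr. The difference at 90/5 2 hr was -0.65 ± 0.34 (SE, adjusted p = 0.39, limma), which is the lowest of Cdh19 against unstimulated cultures and did not pass. Of the alternatives, it passed only without the array block (adjusted p = 0.014) and by the methods' t-test before adjustment. No sample of 90/5 2 hr was well above background. With these samples set as for the bounds of Mag, the mean of the unstimulated samples was 1.48-fold higher. The interval of the fitted difference (-1.36 to 0.07, limma) contained 0, so 1.48-fold is not a lower limit for a difference between the cultures. Erbb3 had group means from 6.42 to 6.78 and none of its differences was called.

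The arrays of a condition often disagreed. At 18/1 5 hr, both samples of one array lay above both of the other for 10 of the 11 probes (all but Mag), and for 77.5% of all probes on the array. At 90/5 2 hr this held for 6 of 11 (71.1% of all probes), in unstimulated cultures for 5 (42.6%), at 18/1 2 hr for 2 (38.6%) and at 90/5 5 hr for 5 (42.4%). The largest such gap among the 11 was 1.36 on the log2 scale, for Pmp22 A_55_P2040168 at 18/1 5 hr. Samples of 18/1 5 hr did not overlap with unstimulated cultures for 5 of the 11 probes (Sox10, Mbp A_55_P1992160, Pmp22 A_55_P2040170, Mag and Cdh19), against 48.3% of all probes.

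Other genes of the myelinating Schwann cell were counted from lists that had been written down by role. Of 9 further myelin protein genes (10 probes), 2 probes were called at 18/1 5 hr, 20% of the list against 25.5% of all probes. Pmp2, the fatty acid-binding protein of peripheral myelin, was called higher at 18/1 5 hr (0.83 ± 0.27, SE, adjusted p = 0.030, limma). It was at the edge of background, well above it in 0 of 4 unstimulated samples and in 4 of 4 at 18/1 5 hr (3 of them marked as non-uniform). The other was called lower. Cnp, Gjb1, Gldn and Drp2 were well above background in all samples of both groups and were not called. The median of the list was -0.05.

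Among 12 genes of neuregulin, ErbB and axon-glia signalling (17 probes), 1 probe was called higher and 2 lower at 18/1 5 hr, which is 17.6% of the list against 25.5% of all probes. Nrg2, which encodes a ligand of the ErbB family, was higher on 1 of its 2 probes (1.57 ± 0.39, SE, adjusted p = 0.0081, limma). Adam22, the receptor partner of the Schwann cell signal Lgi4, was lower on 1 of 3 probes (-1.41 ± 0.46, adjusted p = 0.032), and Gpr126, a receptor needed for myelination, was lower (-0.63 ± 0.20, adjusted p = 0.030), with no 18/1 5 hr sample well above background. The probes of Nrg1 and Erbb2 gave -0.41 and -0.21, and neither was called.

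Of 11 further transcription factors of the lineage (15 probes), 3 probes of 2 genes were called higher at 18/1 5 hr and none lower (20% of the list, against 25.5% of all probes). In the fit with the spot filter 1 of 3 probes was called higher and 1 lower, against 45.1% of all filtered probes called. The same fit called 1 of these 3 probes higher at 90/5 2 hr (6.18% of all filtered probes). Nab2, a co-repressor that binds Egr factors and is itself induced by activity in neurons, was called on both probes (1.99 ± 0.48 and 0.89 ± 0.19, SE, adjusted p = 0.0067 and 0.0036, limma). On the second of them no unstimulated sample was well above background and all 4 spots at 18/1 5 hr were marked as non-uniform. Id2, an inhibitor of differentiation, was 2.20 ± 0.53 higher (adjusted p = 0.0068). Egr2, the driver of myelination, gave 0.15 and was not called. Of 12 genes of myelin lipid synthesis (14 probes), 1 probe was called higher and 1 lower at 18/1 5 hr. These were 14.3% of the list, against 25.5% of all probes. With the spot filter, 1 of 9 probes was called lower and none higher, against 45.1% of all filtered probes called. Hmgcs1, an enzyme of cholesterol synthesis, was called higher on 1 of 2 probes (2.14 ± 0.34, adjusted p = 0.00045), with 3 of 4 spots at 18/1 5 hr marked as non-uniform. Its other probe, which passed the spot filter and had 3 saturated spots there, gave -0.50 (adjusted p = 0.48). The sterol regulator Srebf2 was lower on 1 of 2 probes (-1.03 ± 0.19, adjusted p = 0.0013), with 1 of 4 samples of 18/1 5 hr well above background, and gave -0.24 (adjusted p = 0.78) on the other. At 18/1 5 hr, none of 8 genes of immature Schwann cells and their laminin receptors (11 probes) was called with no filter. The same held for 8 genes of satellite glia (9 probes). With the spot filter, 1 of 4 probes of the former list was called higher, against 45.1% of all filtered probes called. Between the patterns at 5 hr, each list had 1 probe called with no filter (26.7% of all probes), Itga6 lower after 90/5 (-1.20) and Cyr61 higher (0.71). In the fit with no filter, no probe of these 6 lists was called against unstimulated cultures under any condition but 18/1 5 hr. Few of all probes were called there either, 0.00507% at 18/1 2 hr, 1.44% at 90/5 2 hr and 0.0457% at 90/5 5 hr.

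**Figure D4:**
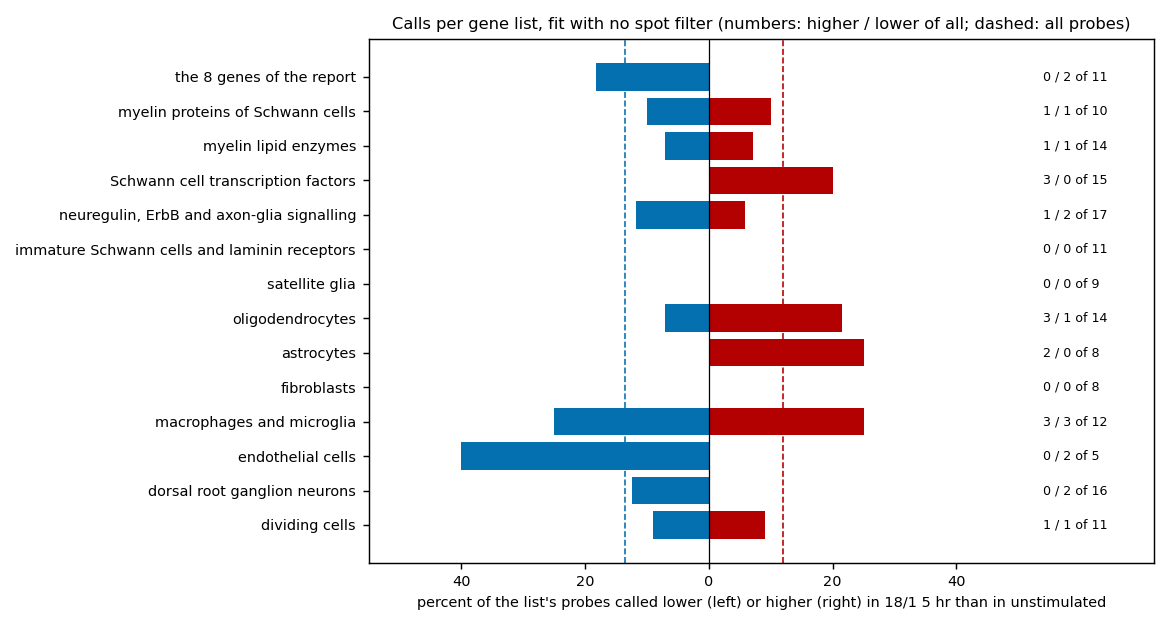
Percent of the probes of each gene list called lower (left, blue) or higher (right, red) at 18/1 5 hr against unstimulated cultures, with the counts at the right and the shares over all 39429 probes as dashed lines (13.5% lower, and higher for 4725 probes). The 8 genes have 2 of 11 probes called lower, and the satellite glia, fibroblast and immature Schwann cell lists have none called.

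Genes of other cell types were measured beside them. All 14 neuron genes (16 probes) had a probe well above background in all 20 samples, as did all 8 fibroblast genes and all 6 genes of macrophages and microglia, while 6 of 10 oligodendrocyte genes had one in all 4 unstimulated samples and Olig2 and Opalin had none in any unstimulated sample. The summed linear signal of the fibroblast list was 18578 to 47383 in unstimulated samples, 29562 to 57626 at 18/1 2 hr, 69995 to 79674 at 18/1 5 hr, 22498 to 86569 at 90/5 2 hr and 22673 to 46532 at 90/5 5 hr. Such sums are carried by the brightest probes of a list, and that of Col1a1 was saturated in 3 of 4 samples of 18/1 5 hr. None of the 8 fibroblast probes was called at 18/1 5 hr in the fit with no filter (25.5% of all probes). Of the 4 that passed the spot filter, 1 was called higher in the fit with that filter, against 45.1% of all filtered probes called. The sum of the neuron list was 716278 to 804897 in unstimulated samples and 529742 to 808064 at 18/1 5 hr. There 2 of its 16 probes were called lower, among them that of Avil (-1.31). These were 12.5% of the list, against 13.5% of all probes called lower.

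At 18/1 5 hr, where 25.5% of all probes were called, 28.6% of the oligodendrocyte probes, 25% of those of astrocytes, 50% of those of macrophages and microglia and 40% of those of endothelial cells were called. Of 14 oligodendrocyte probes 3 were called higher and 1 lower. The myelin gene Mog was higher (1.86 ± 0.37, SE, adjusted p = 0.0018, limma), with 2 of 4 spots at 18/1 5 hr marked as non-uniform. Nkx2-2 was lower (-0.91), with no 18/1 5 hr sample well above background. The summed signal of the list was 13009 to 33622 in unstimulated samples and 32061 to 57734 at 18/1 5 hr. Of 8 astrocyte probes 2 were called higher and none lower, and the sum was 1092 to 1268 in unstimulated samples and 1501 to 3618 at 18/1 5 hr. The water channel gene Aqp4 was higher on 1 of 2 probes (2.92 ± 0.50, adjusted p = 0.00071), with 3 of 4 spots marked as non-uniform, and gave -0.35 on the other. Of 12 probes of macrophages and microglia 3 were called higher and 3 lower, Csf1r in both directions on different probes, and the sum was 22531 to 32501 and 12710 to 33564. Of 5 endothelial probes 2 were called lower, those of Pecam1 (-1.36 ± 0.30, adjusted p = 0.0040) and 1 of 2 of Kdr (-2.26 ± 0.35, adjusted p = 0.00031), and the sum was 2497 to 3577 in unstimulated samples and 790.0 to 1078 at 18/1 5 hr. Of 11 probes of dividing cells 1 was called higher and 1 lower. The part of these cell types in the values of Mag, Mbp, Sox10 and Pmp22 at 18/1 5 hr was not tested.

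Likeness between probes was described over the 12 samples of slides 1 and 3, after the means of conditions and the effect of colour had been taken out. The genes closest to S100b, which alone passed the spot filter, were Mdh2 (r = 0.95), Prph (0.93), AK203298 (0.92), Cox8a (0.91) and Slc10a1 (0.89) out of 11952 probes. Over all 20 samples these correlations were 0.97, 0.65, 0.71, 0.20 and 0.37. The samples share arrays in pairs and S100b was saturated in 4 of the 12, so these values are descriptions. For the 6 probes above the background rule, each one's r with the mean of the other 5 lay between -0.57 (S100b) and 0.22 (Sox10) over the 12 samples, and between -0.49 (Mbp A_52_P604195) and 0.67 (Sox10) over all 20.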

How the data were processed

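Per the file headers, the authors deposited spot intensity values (mean signal and median local background per colour, linear, not normalized), extracted with Agilent Feature Extraction 10.7.1.1 (slide 1) and 10.7.3.1 (slides 2 and 3). The software's marks for non-uniform, saturated or well-above-background spots were taken unchanged. In R 4.3.3 with limma 3.58.1, background was corrected with normexp (offset 50), colours with loess (control spots at weight 0) and arrays with Aquantile, and spots of a probe were averaged. One linear model was fitted to all 20 samples, with condition means, a colour term and the array as random block (correlation 0.74 with no filter, 0.54 with it), and p-values were adjusted by Benjamini-Hochberg over all probes of a comparison. The fit was tested on simulated data. Titles number the samples of each condition. After group means and colour were removed, all 4 same-numbered pairs of unstimulated and 18/1 2 hr samples, which share a slide, deviated together (r from 0.12 to 0.54). A fit of slides 1 and 3 alone, with this number as a block in place of the colour term, was therefore also made. Depth does not apply to arrays, where 2 per condition limit the precision. For slide 2 the labels do not tie replicates to colours, so its samples carry the array and colour as names. The genes and lists were chosen with earlier results of these data known. All 8 genes are named with every probe, and of each list up to 3 called probes with the largest difference, a few of which are not reported here. Alternatives were other background corrections, normalizations, filters, models, tests and left-out samples or arrays.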

Additional observations from a re-analysis of the deposited data

Results flagged for a closer look

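Among 55 groups of 4 samples (11 probes in 5 conditions), 3 held a sample far from the other 3, and chance alone marks about 1 group in 20. Mbp A_52_P604195 was at 12.17 in unstimulated sample 3, below the other 3 samples at 12.36 to 12.39, and at 11.80 in 90/5 5 hr sample 1, below the other 3 at 12.47 to 12.55. Mag was at 7.63 in unstimulated sample 2, above the other 3 at 7.50 to 7.52. Mag also differed between the patterns at 5 hr, where it was 1.27 higher on the log2 scale after 90/5 than after 18/1 (adjusted p = 0.00017, limma with no spot filter). No sample of 18/1 5 hr was well above background, so the mean of the 90/5 5 hr samples is given only as at least 2.39-fold higher.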

How the results depend on the processing

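With the spot filter, no comparison called S100b, the only probe of the 8 genes tested. With no filter, 2 of 11 probes were called at 18/1 5 hr against unstimulated cultures and 1 at 5 hr between the patterns. A filter that 1 condition had to pass in its 4 samples gave 3 and 1 of 7 probes (37.4% and 38.3% of all probes tested). The background rule alone gave 2 of 6 at 18/1 5 hr (41.6% of all 18333 probes), and median centring gave 1 of 1 in both of these comparisons and in 90/5 2 hr against 18/1 5 hr (53.3%, 58.4% and 47.3%). With no filter and non-uniform spots set to missing, these 3 comparisons gave 2, 2 and 1 of 11 (21.4%, 22.5% and 2.51%). The last 2 filters were chosen after the data were seen. With the spot filter, where S100b alone was tested, leaving out single samples or arrays gave 0 to 1, with 1 only without array 5. Correlations between samples of an array were held fixed there. Mag kept both calls, at 18/1 5 hr and at 5 hr between the patterns, in every one of the 44 alternatives run. Its differences lay between -1.40 and -0.90 and between 1.08 and 1.72. Both comparisons cross slides. Within slide 2, the difference of Mag between 90/5 2 hr and 18/1 5 hr was called in 3 alternatives and not in 41. The cause of these shifts was not tested.

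The fit with the replicate number as a block left out slide 2 and had no colour term. In it 0 probes of the 8 genes were called at 18/1 2 hr and 90/5 5 hr. Of all filtered probes 7 and 359 were called there, against 2 and 7 in the main fit. With no filter these were 17 and 478 of all probes against 2 and 18. The part of the block, the slide and the colour term in these counts was not tested. The numbers of the 90/5 5 hr samples did not pair them with the others, since 3 of 8 same-numbered pairs had an r over 0.1 (from -0.35 to 0.53). The block fit changed no call of the 8 genes in these comparisons. Probes near background, saturated spots and 2 arrays per condition limit the precision.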
